A study of Homo sapiens with 8 samples.

Results

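Small heat shock proteins and BAG cochaperones were followed in the established human breast cancer cell line HS578T as 10 genes chosen by name from the 60708 genes of a deposited count table: 7 of the HSPB family (HSPB1, HSPB2, HSPB6, HSPB7, HSPB8, HSPB11 and CRYAB) and 3 of the BAG family (BAG1, BAG2 and BAG3). The RNA sequencing series holds 4 groups of 2 libraries. HSF2oe TGF-β cells were transfected with 25 µg of a plasmid for the transcription factor HSF2 and, 24 h later, kept for 24 h in low-serum medium with 10 ng/ml TGF-β1; HSF2oe control cells had the same plasmid and the medium alone. Mock TGF-β and Mock control cells received a plasmid for green fluorescent protein in place of HSF2 and the same media, so every group was transfected and none was untouched. Libraries of a group are described as biological replicates without a statement on separate cultures, so p-values measure the spread between these libraries, which may be in part technical. Groups were taken from the sample titles: a treatment field contradicts them, with DMSO throughout Mock and TGF-β1 throughout HSF2oe.

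Small heat shock proteins are chaperones that work without ATP: they assemble into oligomers, hold unfolding proteins in a soluble state and pass them on to HSP70 and HSP110 machines. BAG proteins bind the ATPase domain of HSP70 through a shared BAG domain, speed nucleotide exchange and so time the release of its client. BAG3 joins both families, since it also binds HSPB8 and HSPB6 and steers clients to autophagy. Heat shock factors bind inverted repeats of the unit GAA in front of many chaperone genes; HSF1 is the main activator during heat stress, and HSF2 binds the same repeats and can form trimers with HSF1.

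HSF2 was the overexpressed factor, so the promoter windows of HSPB1, HSPB6, HSPB7 and BAG1, which changed with it, are shown beside that of HSPB8, which passed no test. They come from RefSeq on GRCh38.p14, where 8 of the 10 members matched, HSPB11 under the symbol IFT25, and each runs from 250 bases before to 50 bases after a RefSeq transcript start, 5′ to 3′ on the gene's strand. Capitals mark pairs of heat shock units, GAANNTTC or TTCNNGAA. The HSPB1 window is chr7:76302423-76302722 on the plus strand, HSPB6 chr19:35756980-35757279 on the minus strand, HSPB7 chr1:16017994-16018293 on the minus strand, BAG1 chr9:33264659-33264958 on the minus strand and HSPB8 chr12:119178681-119178980 on the plus strand.
HSPB1: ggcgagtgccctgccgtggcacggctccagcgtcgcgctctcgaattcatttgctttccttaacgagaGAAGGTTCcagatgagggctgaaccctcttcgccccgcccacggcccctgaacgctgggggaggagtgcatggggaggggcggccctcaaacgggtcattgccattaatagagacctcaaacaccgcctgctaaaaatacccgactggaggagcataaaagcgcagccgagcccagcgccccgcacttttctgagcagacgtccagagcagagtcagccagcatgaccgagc
HSPB6: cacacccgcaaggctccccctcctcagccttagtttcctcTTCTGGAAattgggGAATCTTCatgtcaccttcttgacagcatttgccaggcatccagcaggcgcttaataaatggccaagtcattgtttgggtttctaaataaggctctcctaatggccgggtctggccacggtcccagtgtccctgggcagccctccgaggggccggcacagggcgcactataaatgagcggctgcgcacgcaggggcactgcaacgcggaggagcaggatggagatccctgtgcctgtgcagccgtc
HSPB7: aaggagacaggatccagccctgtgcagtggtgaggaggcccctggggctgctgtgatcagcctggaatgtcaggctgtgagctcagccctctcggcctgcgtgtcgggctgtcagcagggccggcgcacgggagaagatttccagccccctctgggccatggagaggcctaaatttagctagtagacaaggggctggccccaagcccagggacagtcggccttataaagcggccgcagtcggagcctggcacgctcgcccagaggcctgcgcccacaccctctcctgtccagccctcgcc
BAG1: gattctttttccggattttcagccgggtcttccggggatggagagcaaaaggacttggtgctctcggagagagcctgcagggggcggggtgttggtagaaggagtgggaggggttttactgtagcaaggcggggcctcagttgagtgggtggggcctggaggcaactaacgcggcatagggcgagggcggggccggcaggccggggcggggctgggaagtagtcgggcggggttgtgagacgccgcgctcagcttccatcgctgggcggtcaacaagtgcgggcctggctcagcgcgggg
HSPB8: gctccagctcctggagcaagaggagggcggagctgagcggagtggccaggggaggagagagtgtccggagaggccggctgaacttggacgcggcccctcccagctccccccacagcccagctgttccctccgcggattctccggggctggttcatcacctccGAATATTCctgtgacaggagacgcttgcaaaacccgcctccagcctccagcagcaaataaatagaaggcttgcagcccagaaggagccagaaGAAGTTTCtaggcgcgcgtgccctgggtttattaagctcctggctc

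Both letter patterns read the same on either strand, no matches overlapped in the member windows, and 1 or the other lay in 13.5% of the 35116 RefSeq promoter windows of this length. Among the members, 4 of the 8 with a window held a pair. HSPB1 had GAAGGTTC 182 bases before the start. HSPB6 had TTCTGGAA 210 and GAATCTTC 196 bases before it, and HSPB8 had GAATATTC 88 bases before the start and GAAGTTTC beginning 4 bases past it. BAG2 had GAACCTTC 124 bases before its start. The windows of HSPB7, HSPB11, BAG1 and BAG3 held none of these letters. The longer run, in which either pair is extended by 1 more unit at the same spacing, was in none of the member windows and in 0.49% of all windows. Of the members that fell with HSF2 overexpression, HSPB1 and HSPB6 held such a pair and HSPB7 did not. CRYAB, which also fell, and HSPB2 had no window. Members near the Mock level were found with and without a pair. Only exact matches within these windows were searched, and the part of such pairs in the changes was not tested.

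Gene counts summed to 17427645 to 34336107 per library, so that 3 counts, the limit that a count of 0 allows, stood for 0.0851 to 0.195 CPM (counts scaled by TMM-adjusted library totals); such limits cover counting error only. HSF2 was at 780.3 and 489 CPM in the HSF2oe TGF-β libraries and 937 and 616 CPM in the HSF2oe control libraries, against 5.40 and 5.76 CPM in the Mock TGF-β libraries and 8.36 and 6.44 CPM in the Mock control libraries. The HSF2 count does not tell plasmid from endogenous transcripts. HS578T is a mesenchymal-like line: in each group 5 of 5 mesenchymal markers were above 1 CPM, with a summed level of 34327 to 51348 CPM in HSF2oe and 35310 to 70879 CPM in Mock libraries, while 2 or 3 of 5 epithelial markers, 2 of 5 luminal markers, 1 or 2 of 5 endothelial markers and none of 5 blood markers were above 1 CPM. Summed epithelial markers were at 195 to 234 CPM in HSF2oe libraries and 264 to 295 CPM in Mock libraries, with EPCAM at 0 in the HSF2oe TGF-β libraries. Summed luminal markers were at 15.3 to 18.4 CPM in HSF2oe libraries and 9.63 to 10.9 CPM in Mock libraries, with PGR at 0 in all groups. The part of either list in the results for the members was not tested.

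Members differed widely in level. Per kilobase of exon, HSPB1 was at 459 ± 81.3 CPM (mean ± SD over the 8 libraries), above 99.7% of the 16008 genes tested. BAG3 followed at 39.3 ± 2.77 CPM per kilobase. HSPB6 at 14.0 ± 4.07 and HSPB8 at 9.76 ± 0.50 CPM per kilobase overlapped across libraries. BAG2 came next at 6.77 ± 0.40 CPM per kilobase, above every value of the genes below it. The lengths include bases shared with other genes, over which reads were not counted. Levels may thus be too low for HSPB2 (85.5% shared), BAG2 (44.2%), HSPB6 (38.3%) and CRYAB (13.6%), and their places in this order are uncertain. HSPB11 (4.86 ± 0.80), BAG1 (3.94 ± 0.66), HSPB7 (3.94 ± 1.22) and CRYAB (3.04 ± 0.73 CPM per kilobase) overlapped in range, so their order is not resolved. HSPB2 had 0.142 ± 0.0996 CPM per kilobase and was the 1 member left out by the low-count filter, so 9 members were tested.

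**Figure D1:**
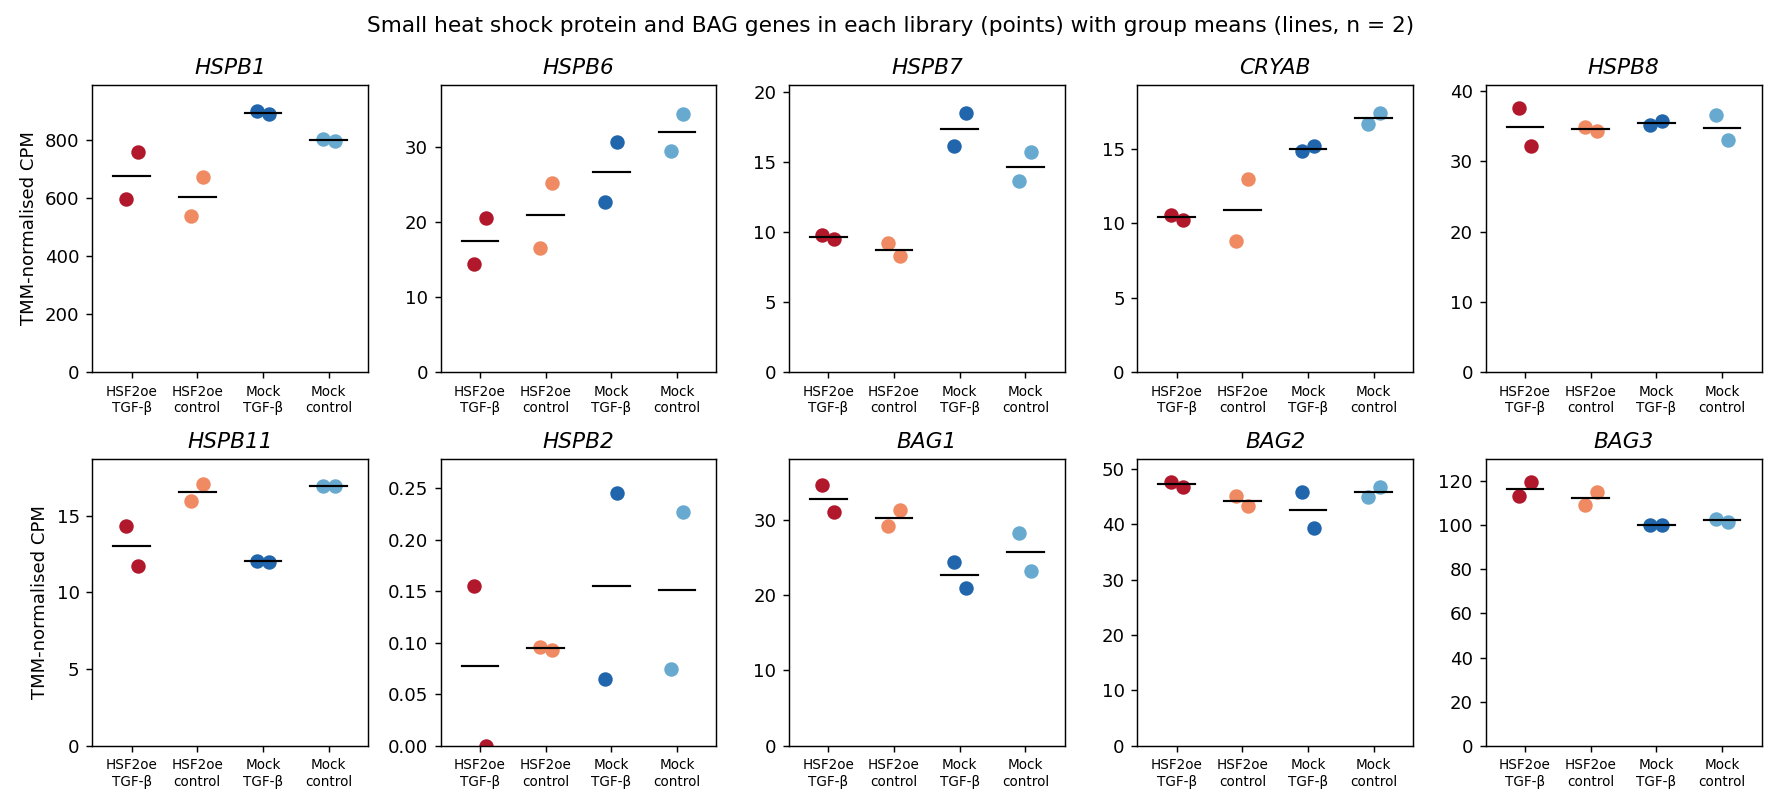
Level of each member in every library, as TMM-normalised CPM on linear axes that start at 0; points are libraries and lines the means of the 2 libraries of a group, with HSF2oe groups in reds and Mock groups in blues. HSPB1, HSPB7 and CRYAB lie lower in all 4 HSF2oe libraries than in any Mock library, BAG1 and BAG3 lie higher, and HSPB11 is lower in all 4 TGF-β libraries than in any control library.

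With HSF2 overexpression, averaged over both media, 4 of the 6 small heat shock protein genes tested fell (HSPB1, HSPB6, HSPB7 and CRYAB), BAG1 rose, and the other 4 members did not pass the test. That is 5 of 9 members (edgeR, quasi-likelihood test, adjusted after Benjamini and Hochberg over all genes tested), where 32.5% of all genes passed, 15.2% higher and 17.3% lower (2431 and 2768 genes). The median log2 fold change was -0.49 over the 6 small heat shock protein genes and 0.17 over the 3 BAG genes, against 0.00 over all genes tested. With counts scaled by library totals alone, without TMM factors, the median of all genes itself moved to 0.14, or 0.19 with TGF-β and 0.089 in control medium, so values under that scaling are to be read against these; 4438 genes were then called higher and 1693 lower. In bulk RNA, fewer cells with a transcript and less of it per cell cannot be told apart.

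HSPB7, a small heat shock protein known mainly from heart and skeletal muscle, where it binds filamin C, changed most. Its level was 9.74 and 9.46 CPM in HSF2oe TGF-β and 9.18 and 8.28 CPM in HSF2oe control libraries, against 16.1 and 18.5 CPM in Mock TGF-β and 13.6 and 15.7 CPM in Mock control libraries. The HSF2oe libraries all lay below the lowest Mock library. Averaged over media, HSPB7 fell by 0.80 ± 0.10 on the log2 scale (± SE; adjusted p = 6.84e-05, edgeR). The fall was -0.85 ± 0.14 with TGF-β and -0.75 ± 0.14 in control medium (adjusted p = 0.00112 and 0.00422, edgeR). In control medium the call was lost without Mock control replicate 2, where the value was -0.64 (adjusted p = 0.0620, edgeR).

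CRYAB encodes αB-crystallin, a holdase of lens and muscle that is also used as a marker of basal-like breast tumours. It was at 10.5 and 10.2 CPM in HSF2oe TGF-β and 8.83 and 13.0 CPM in HSF2oe control libraries, against 14.8 and 15.2 CPM in Mock TGF-β and 16.6 and 17.4 CPM in Mock control libraries. The HSF2oe control pair was spread wider than the other pairs, yet both of its libraries stayed below all Mock libraries. CRYAB fell by 0.59 ± 0.11 averaged over media (adjusted p = 0.00174, edgeR), by 0.53 ± 0.17 with TGF-β (adjusted p = 0.0359) and by 0.64 ± 0.16 in control medium (adjusted p = 0.0188). The call with TGF-β was lost without either Mock TGF-β or either HSF2oe TGF-β library (-0.50 to -0.54, adjusted p = 0.0876 to 0.147, edgeR) and with library totals alone (-0.34). That in control medium was lost without Mock control replicate 2 (-0.61, adjusted p = 0.125) or HSF2oe control replicate 1 (-0.39, adjusted p = 0.210, edgeR).

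HSPB1, the most abundant member, encodes a stress-inducible chaperone that binds actin filaments and is phosphorylated downstream of p38 kinase. Its level was 597 and 759 CPM in HSF2oe TGF-β and 538 and 674 CPM in HSF2oe control libraries, against 900.4 and 893 CPM in Mock TGF-β and 805 and 797 CPM in Mock control libraries. The Mock pairs agreed closely, the HSF2oe pairs did not, and all HSF2oe libraries lay below all Mock libraries. HSPB1 fell by 0.40 ± 0.09 averaged over media (adjusted p = 0.00504, edgeR), with the same size with TGF-β (-0.40 ± 0.13, adjusted p = 0.0435) and without (-0.40 ± 0.13, adjusted p = 0.0632, not past the threshold). In control medium it passed without a filter (adjusted p = 0.00214, edgeR), with DESeq2 (0.0262), with the replicate block (0.00393) and without 1 of 3 libraries (HSF2oe control replicate 2 or either HSF2oe TGF-β library), and leaving out a library moved it between -0.57 and -0.25. With library totals alone the averaged value was -0.26. The call with TGF-β was lost without either Mock control library, either Mock TGF-β library or HSF2oe TGF-β replicate 1, with values from -0.22 to -0.41 and adjusted p from 0.0561 to 0.371 (edgeR), and likewise with library totals alone (-0.21) or with the compared libraries only (-0.39). Reads of the processed pseudogene HSPB1P1 amounted to 0.23% to 0.31% of those of HSPB1. Reads that map to more than 1 place were not counted, so this share does not show how many were lost to both.

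HSPB6 is a small heat shock protein of smooth and striated muscle and another partner of BAG3. It was at 14.4 and 20.5 CPM in HSF2oe TGF-β and 16.5 and 25.1 CPM in HSF2oe control libraries, against 22.6 and 30.6 CPM in Mock TGF-β and 29.5 and 34.4 CPM in Mock control libraries. Replicate 2 was higher than replicate 1 in every group, and the HSF2oe and Mock ranges overlapped, through HSF2oe control replicate 2 and Mock TGF-β replicate 1. Averaged over media HSPB6 fell by 0.62 ± 0.15 (adjusted p = 0.0057, edgeR). Within a medium it did not pass, at -0.62 ± 0.21 with TGF-β (adjusted p = 0.0510) and -0.62 ± 0.20 in control medium (adjusted p = 0.0634). With the replicate number as a block these were -0.61 (adjusted p = 0.000301) and -0.63 (adjusted p = 0.000186, edgeR). Both also passed without a filter, with DESeq2, with the compared libraries only, with thinned counts and without some single libraries, and the first with RLE factors; leaving out a library moved the value between -0.88 and -0.36 with TGF-β and between -0.94 and -0.35 in control medium. Of its exonic bases 38.3% are shared with the locus AC002398.12, which had 0 counts in every library. Reads over shared bases were counted for neither gene by the counter's default. The 0 counts therefore do not show that HSPB6 lost no reads there, and its counts are uncertain.

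HSPB8, the small heat shock protein that forms a stable complex with BAG3, had 37.6 and 32.2 CPM in HSF2oe TGF-β and 34.8 and 34.4 CPM in HSF2oe control libraries, against 35.2 and 35.8 CPM in Mock TGF-β and 36.6 and 33.0 CPM in Mock control libraries. Within each medium the HSF2oe and Mock libraries overlapped. The averaged HSF2oe effect was -0.01 ± 0.08 on the log2 scale and its sign turned with the scaling, to 0.13 with library totals alone.

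HSPB2 is a muscle small heat shock protein whose gene lies head to head with CRYAB. Only 5 and 0 counts were found in HSF2oe TGF-β, 3 and 3 in HSF2oe control, 1 and 5 in Mock TGF-β and 2 and 8 in Mock control libraries. These are at or near the limit that a count of 0 allows, so no fold is given. CRYAB and the readthrough gene HSPB2-C11orf52 share 85.5% of its exonic bases, and reads over shared bases were counted for neither gene by the counter's default.

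Of the BAG genes, BAG1 rose. Its product comes in several isoforms, binds HSP70 and carries a ubiquitin-like domain that docks on the proteasome. BAG1 was at 34.6 and 31.0 CPM in HSF2oe TGF-β and 29.2 and 31.3 CPM in HSF2oe control libraries, against 24.4 and 21.0 CPM in Mock TGF-β and 28.3 and 23.2 CPM in Mock control libraries. All HSF2oe libraries were above all Mock libraries, though Mock control replicate 1 came close. BAG1 rose by 0.39 ± 0.09 averaged over media (adjusted p = 0.00484, edgeR) and by 0.54 ± 0.13 with TGF-β (adjusted p = 0.00973), while in control medium it stood at 0.24 ± 0.12 and did not pass (adjusted p = 0.236), with 0.097 to 0.38 when a library was left out. The call with TGF-β was lost without Mock TGF-β replicate 2 (0.43, adjusted p = 0.108) or HSF2oe TGF-β replicate 1 (0.47, adjusted p = 0.0721, edgeR).

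BAG3, the stress-induced member that links HSP70 to HSPB8 and to selective autophagy, was at 113 and 119 CPM in HSF2oe TGF-β and 109 and 115 CPM in HSF2oe control libraries, against 100.1 and 100.0 CPM in Mock TGF-β and 103 and 102 CPM in Mock control libraries. All HSF2oe libraries lay above all Mock libraries, but the difference was small: 0.17 ± 0.06 averaged over media, which missed the threshold (adjusted p = 0.0513, edgeR). It passed with library totals alone (0.32, adjusted p = 0.00251), with a stricter filter (0.18, adjusted p = 0.0307), with limma-trend, run on log2 CPM as deposited (0.18, adjusted p = 0.0289) and with the replicate block (0.17, adjusted p = 0.0137). BAG2, which binds HSP70 and restrains the ubiquitin ligase CHIP, had 47.6 and 46.8 CPM in HSF2oe TGF-β and 45.2 and 43.3 CPM in HSF2oe control libraries, against 45.9 and 39.4 CPM in Mock TGF-β and 44.9 and 46.8 CPM in Mock control libraries. Over both media the HSF2oe and Mock libraries overlapped, with an averaged effect of 0.05 ± 0.07, and 44.2% of the exonic bases of BAG2 are shared with RAB23 and ZNF451-AS1, so its counts are uncertain.

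Counting libraries alone, 5 of the 9 tested members did not overlap between the 4 HSF2oe and the 4 Mock libraries: HSPB1, HSPB7 and CRYAB were below, BAG1 and BAG3 above. Of all genes tested, 21.6% separated in this way.

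Within single media the counts were smaller. With TGF-β, HSPB1, HSPB7 and CRYAB fell and BAG1 rose, 4 of 9 members against 21.5% of all genes tested. In control medium HSPB7 and CRYAB fell, 2 of 9 members against 12.1% of all genes tested. With the replicate block 6 members passed with TGF-β and 4 in control medium, where 4900 and 3614 of all 16008 genes passed. Both comparisons rest on separate libraries, and whether the effect of HSF2 differed between media is tested by the interaction, which no member passed (0 of 9, against 0% of all genes tested). Interaction values ran from -0.10 for HSPB7 to 0.30 ± 0.18 for BAG1 on the log2 scale, no member had an unadjusted p under 0.05, and DESeq2 also called 0 members. Over all genes, 977 had an unadjusted interaction p under 0.05, and DESeq2 called 23.

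**Figure D2:**
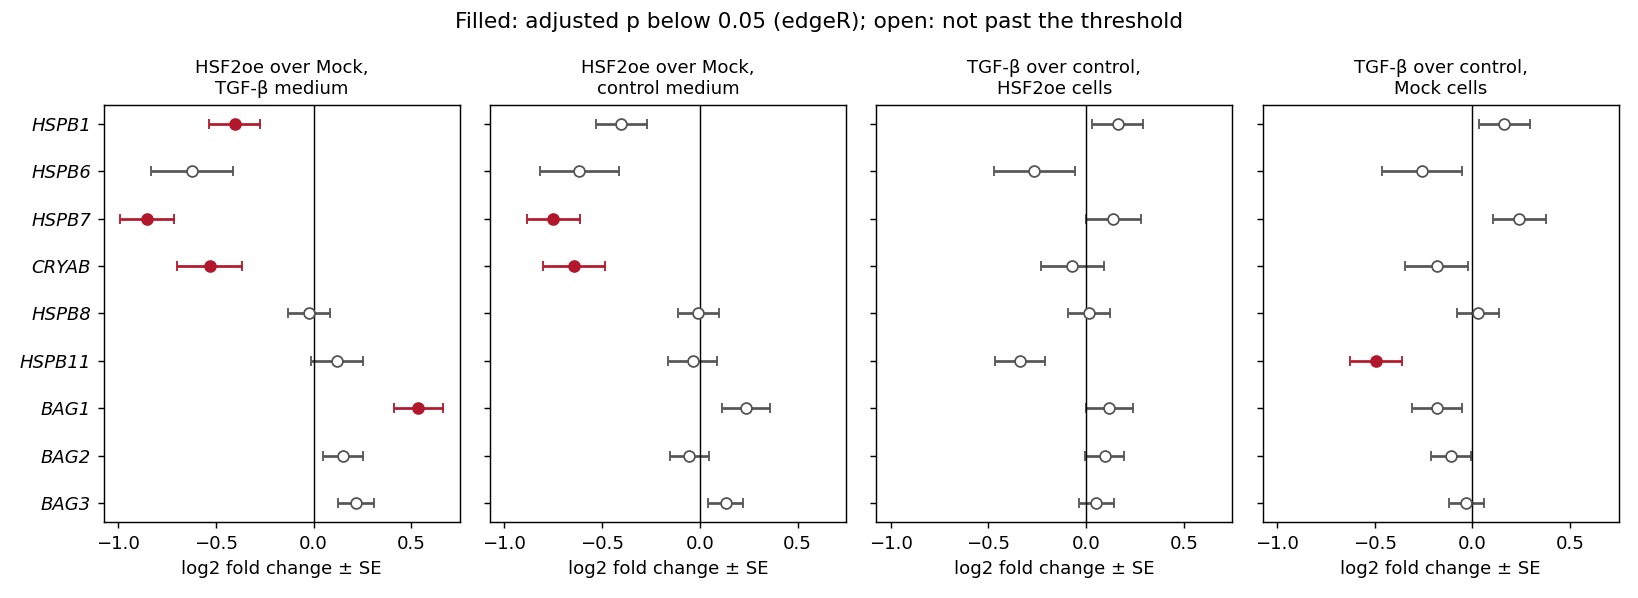
Log2 fold change ± SE of the 9 tested members for HSF2oe over Mock in each medium and for TGF-β over control in each cell group; filled red points passed an adjusted p of 0.05 (edgeR, all 16008 genes) and open points did not. HSPB7 and CRYAB are filled in both HSF2oe panels and HSPB11 is filled for TGF-β in Mock cells at -0.49.

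TGF-β1 changed 1 member by the test. Averaged over both plasmids HSPB11 fell by 0.41 ± 0.09 on the log2 scale (adjusted p = 0.00525, edgeR), 1 of 9 members against 20.2% of all genes tested. HSPB11, listed by RefSeq as IFT25, was named for sequence similarity to small heat shock proteins but is best known as a subunit of the IFT-B complex, which moves cargo along cilia. Its level was 14.3 and 11.7 CPM in HSF2oe TGF-β against 16.0 and 17.1 CPM in HSF2oe control libraries. In Mock cells it was 12.0 and 12.0 CPM with TGF-β against 16.9 and 16.9 CPM in control medium. All TGF-β libraries were below all control libraries, and no other member separated in this way (1 of 9, against 13.1% of all genes tested).

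In Mock cells HSPB11 fell by 0.49 ± 0.13 (adjusted p = 0.0243, edgeR), again 1 of 9 members, against 13.8% of all genes tested. That call was lost without any 1 of the 4 Mock libraries, where the adjusted p was 0.0835 to 0.122 and the value -0.49 to -0.50, and with counts thinned to the lowest total (-0.44, adjusted p = 0.0610, edgeR). In HSF2oe cells it stood at -0.34 ± 0.13 (adjusted p = 0.145, edgeR), and no member passed (0 of 9, against 8.26% of all genes tested). An unadjusted p under 0.05 (edgeR) was found for 1 of 9 members and for 3224 of all 16008 genes. DESeq2 called 0 members and 1367 of all genes. The difference between both TGF-β effects on HSPB11 was 0.16 ± 0.18 and did not pass. Both TGF-β effects come from separate libraries. With library totals alone HSPB11 stood at -0.76 in Mock cells, -0.50 in HSF2oe cells and -0.63 averaged, a scaling under which the median of all genes itself was at -0.27, -0.17 and -0.22.

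Other members gave TGF-β values from -0.26 ± 0.20 for HSPB6 to 0.24 ± 0.13 for HSPB7 in Mock cells. In HSF2oe cells they ran from -0.26 ± 0.21 for HSPB6 to 0.16 ± 0.13 for HSPB1. None passed the test in either cell group, though with library totals alone CRYAB, BAG1, BAG2 and BAG3 were called lower in Mock cells as well.

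The 4 HSF2oe libraries differed among themselves in HSF2, which was higher in replicate 1 in both media. HSPB1 ran in the opposite order: the library with the most HSF2 (HSF2oe control replicate 1, 937 CPM) had the least HSPB1 (538 CPM), and the library with the least HSF2 (HSF2oe TGF-β replicate 2, 489 CPM) had the most HSPB1 (759 CPM). BAG3 had the same reversed order, from 109 CPM in HSF2oe control replicate 1 to 119 CPM in HSF2oe TGF-β replicate 2, although its level was higher in HSF2oe than in Mock cells. For HSPB6, HSPB7, CRYAB and BAG1 the order over these 4 libraries did not reverse that of HSF2. With 4 libraries this is a description, and the part that replicate number plays in it was not tested.

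**Figure D3:**
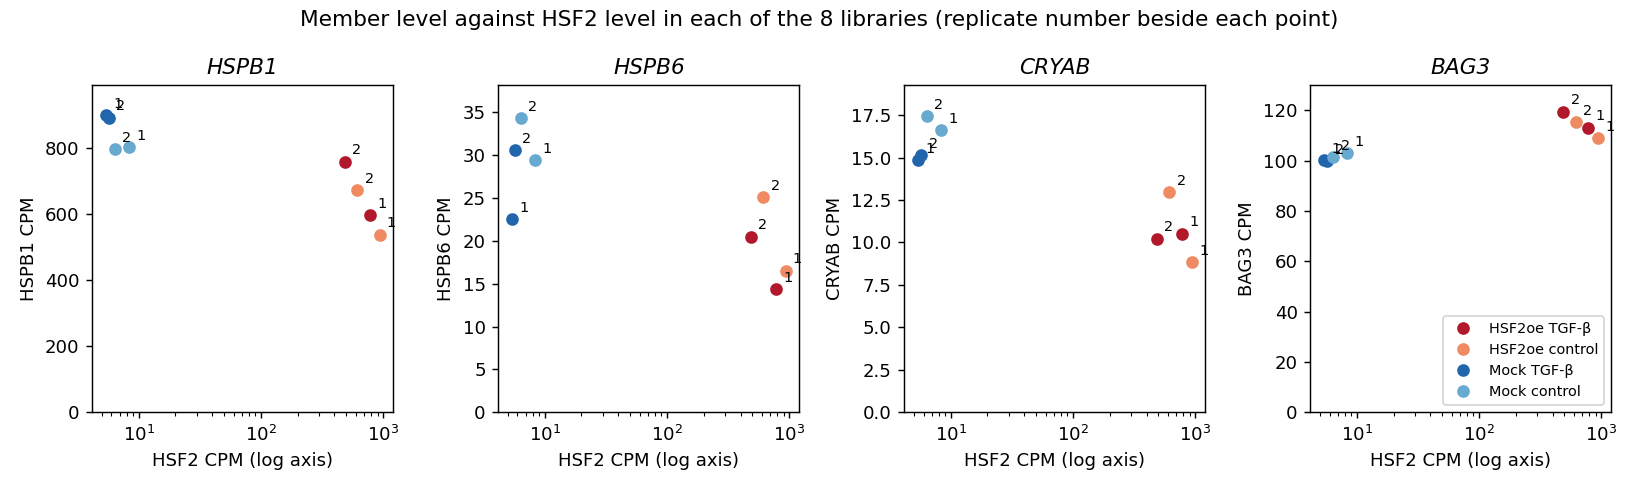
Level of HSPB1, HSPB6, CRYAB and BAG3 (CPM, linear axes from 0) against the level of HSF2 (CPM, log axis) in each of the 8 libraries, with the replicate number beside each point. Among the 4 HSF2oe points on the right, HSPB1 runs down from 759 to 538 CPM as HSF2 goes from 489 to 937 CPM.

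Genes around these families were taken from 6 lists. Among 20 chaperones that are textbook heat shock factor targets, HSF2oe averaged over media raised 13 and lowered 1, against 15.2% higher and 17.3% lower of all genes tested, with a median log2 fold change of 0.28 against 0.00. With library totals alone 18 were called higher and 1 lower, against 4438 and 1693 of all genes. With TGF-β 12 rose and 1 fell, where 1537 of all 16008 genes rose and 1912 fell. In control medium 3 rose and 1 fell, where 781 of all genes rose and 1156 fell. With library totals alone these were 18 and 1 with TGF-β, against 3526 and 1073 of all genes. In control medium they were then 7 and 1, against 1432 and 807. The interaction called 0 of the 20. HSP90AA1, the inducible cytosolic HSP90, rose by 0.56 ± 0.10 with TGF-β (adjusted p = 0.00214, edgeR) and by 0.40 ± 0.10 in control medium (adjusted p = 0.0244). HSPD1, the mitochondrial chaperonin, rose by 0.50 ± 0.09 with TGF-β (adjusted p = 0.00226) and stood at 0.30 ± 0.09 in control medium (adjusted p = 0.0521, edgeR). The 1 that fell, SERPINH1, a collagen chaperone of the endoplasmic reticulum, was at -0.92 ± 0.08 averaged over media (adjusted p = 7.76e-06, edgeR). So most of these 20 genes were called higher averaged over media and with TGF-β, while in control medium 3 were. HSPB1, HSPB6, HSPB7 and CRYAB, which were down, had not been put on this list. The contrast between the list and these members therefore depends in part on which genes the list holds.

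HSP70 partners and other exchange factors, the machinery that BAG proteins act on, gave 6 rises and 2 falls among 14 genes averaged over media (median 0.28 against 0.00), where 32.5% of all genes passed, or 8 and 1 with library totals alone. HSPA6, a strictly stress-inducible HSP70, rose by 2.18 ± 0.33 with TGF-β (adjusted p = 0.000676, edgeR) and by 1.93 ± 0.31 in control medium (adjusted p = 0.00222). Its level stayed low, at 0.624 to 4.11 CPM over all libraries. HSPH1, an HSP110 exchange factor, rose by 0.48 ± 0.10 with TGF-β (adjusted p = 0.00506) and by 0.40 ± 0.10 in control medium (adjusted p = 0.0218). HSPA1A rose by 0.51 ± 0.11 with TGF-β (adjusted p = 0.00451, edgeR), against 0.24 ± 0.10 in control medium (adjusted p = 0.157), but shares nearly identical sequence with HSPA1B, so reads of the pair are uncertain. This list and the target list share genes, HSPH1 and HSPA1A among them.

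The HSPB8 and BAG3 pathway of chaperone-assisted selective autophagy, tested as 20 genes, gave 4 rises and 7 falls averaged over media (median -0.05 against 0.00), where 15.2% of all genes rose and 17.3% fell, a split that became 6 and 6 with library totals alone. SYNPO2, which binds BAG3 and joins it to autophagosome membranes, fell by 0.99 ± 0.11 with TGF-β (adjusted p = 9e-05, edgeR) and by 0.63 ± 0.11 in control medium (adjusted p = 0.00271). SYNPO, an actin-binding paralogue of SYNPO2, fell by 0.73 ± 0.12 with TGF-β (adjusted p = 0.00112, edgeR) and stood at -0.22 ± 0.12 in control medium (adjusted p = 0.253). AMOTL1, which binds the WW domain of BAG3, rose by 0.55 ± 0.09 with TGF-β (adjusted p = 0.0013, edgeR) and by 0.46 ± 0.09 in control medium (adjusted p = 0.00691). TGF-β in Mock cells raised 6 and lowered 1 of the 20, against 13.8% of all genes called, with SYNPO at 0.72 ± 0.12 (adjusted p = 0.00105, edgeR), or 3 and 5 with library totals alone.

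Kinases that phosphorylate HSPB1 or act upstream of them gave 1 rise and 4 falls among 12 genes averaged over media (median -0.06 against 0.00), near the 32.5% of all genes that passed, or 4 rises and 1 fall with library totals alone. MAP2K6, a kinase that activates p38, fell by 1.63 ± 0.43 in control medium (adjusted p = 0.0265, edgeR); with TGF-β it had only 2 and 4 counts in HSF2oe against 6 and 17 counts in Mock libraries, near the limit that a count of 0 allows, so no fold is given. MAP2K3, its paralogue, rose by 0.52 ± 0.15 in control medium (adjusted p = 0.0336) and stood at 0.42 ± 0.15 with TGF-β (adjusted p = 0.0615, edgeR). MAPKAPK2, the kinase that phosphorylates HSPB1, rose by 0.31 ± 0.10 with TGF-β (adjusted p = 0.0332, edgeR) and stood at 0.00 ± 0.10 in control medium (adjusted p = 0.989); averaged, it did not pass (0.16 ± 0.07, adjusted p = 0.0907).

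The IFT-B complex, to which HSPB11 belongs, had 16 other genes in the table. TGF-β changed 0 of these 16 by edgeR's test in Mock cells (median -0.11), against 13.8% of all genes tested. With library totals alone 6 were called, all lower, where 3885 of all 16008 genes were called lower. HSF2oe averaged over media raised 2 and lowered 2 of them, a smaller share than the 32.5% of all genes, or 3 and 0 with library totals alone. With TGF-β, CLUAP1 rose by 0.50 ± 0.14 (adjusted p = 0.0234) and IFT172 fell by 0.47 ± 0.13 (adjusted p = 0.0220, edgeR), while in control medium they stood at 0.10 ± 0.13 and -0.18 ± 0.13 and did not pass. Of 7 other genes of both families, HSPB3 and HSPB9 were at 0 to 0.344 and 0 to 0.13 CPM, CRYAA and ODF1 at 0, and only BAG4, BAG5 and BAG6 were tested. Their averaged HSF2oe values were 0.20 ± 0.09, 0.19 ± 0.09 and 0.08 ± 0.07 and did not pass (0 of 3, against 32.5% of all genes). With library totals alone 3 of 3 were called higher, where 4438 of all 16008 genes were.

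**Figure D4:**
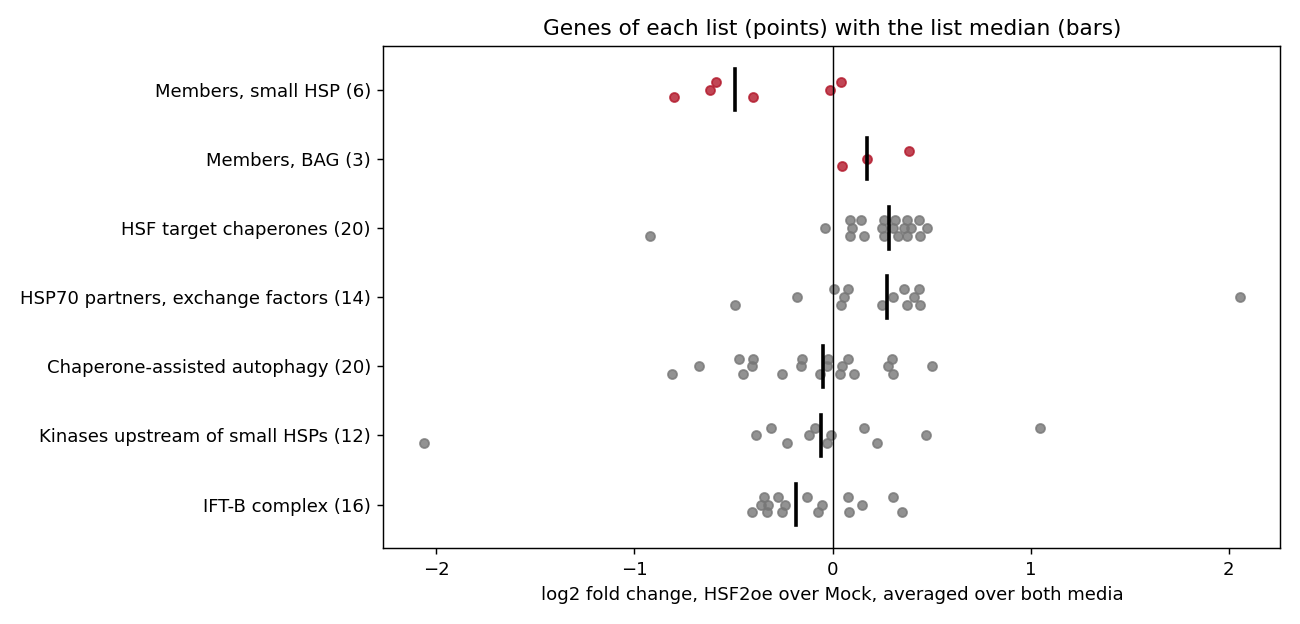
Log2 fold change of HSF2oe over Mock, averaged over both media, for each tested gene (points) of the members and of 5 lists, with the number of genes in parentheses and the median as a bar; the vertical line is 0. The bar of the small heat shock protein genes lies at -0.49 and that of the heat shock factor target chaperones at 0.28.

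In the count table, on GRCh38 with GENCODE release 38, HSPB1 (ENSG00000106211.10) spans chromosome 7, 76302673 to 76304295, plus strand, and HSPB8 (ENSG00000152137.8) chromosome 12, 119171555 to 119224855, plus strand. HSPB6 (ENSG00000004776.13) lies on chromosome 19, 35754566 to 35758079, minus strand. HSPB7 (ENSG00000173641.18) and HSPB11 (ENSG00000081870.12) are on the minus strand of chromosome 1, at 16014028 to 16019594 and 53916574 to 53945699. On chromosome 11, HSPB2 (ENSG00000170276.6) spans 111912734 to 111914093 on the plus strand, within the span of CRYAB (ENSG00000109846.9), 111908564 to 111923722 on the minus strand. BAG1 (ENSG00000107262.26) is at chromosome 9, 33247820 to 33264720, minus strand, BAG2 (ENSG00000112208.11) at chromosome 6, 57172326 to 57189833, plus strand, and BAG3 (ENSG00000151929.10) at chromosome 10, 119651380 to 119677819, plus strand.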

How the data were processed

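The authors deposited whole-number gene counts for 60708 genes in 8 libraries. Per the file headers these came from featureCounts 2.0.1 on read pairs with GENCODE release 38, without strand, multi-overlap or multi-mapping options. The labels give a stranded mRNA kit, so antisense partners were not told apart although the kit would allow it, and pairs over exons of 2 genes count for neither by the tool's default. The submitters' processing notes name STAR 2.7.9a, Subread 2.0.1, edgeR 3.34.1 and GRCh38. Deposited log2 CPM values from the authors cover 13169 genes, 9 members among them, and served as an alternative.

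The members and all gene lists were chosen with earlier results of these data known. Tests ran in R 4.3.3 with edgeR 4.0.16 (TMM factors, genes kept by filterByExpr per group, 1 mean per group over all 8 libraries, 2-sided quasi-likelihood tests), with Benjamini-Hochberg adjustment over 16008 genes and a threshold of 0.05. The biological coefficient of variation was 9.91%, on 4 residual degrees of freedom. Standard errors come from each log2 fold change over the root of its F statistic. Within groups, library counts varied by 12.5 to 26.8 times sampling noise, so no library looked like a repeat. All 10 members and HSF2 were named, and of a list up to 3 genes with the smallest p in a comparison within 1 medium or plasmid. A result that this rule would name is not reported here. Scripts were tested on simulated data.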

Additional observations from a re-analysis of the deposited data

How the results depend on the processing

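With 2 libraries a group, calls within a single medium depended on single libraries, while the 5 HSF2oe calls averaged over media and the averaged HSPB11 call under TGF-β held in all 16 alternatives (other scalings, filters and tests, thinned counts, a replicate block, each library left out). HSPB2 had too few counts to test. Of 1044 recomputed member values, 22 lost and 43 gained a call and 75 changed sign, none of a value that had passed. Unless a value shows it, the cause was not tested.

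Members called for TGF-β in Mock cells numbered 5 with library totals alone, 0 with thinned counts and 0 to 1 with a library left out. For TGF-β in HSF2oe cells 1 was called with library totals alone, and averaged over plasmids 5 were called with library totals alone, 2 without a filter and 2 with the block. The averaged effect then passed in 6061 of 16008, 3539 of 31802 and 4389 of 16008 genes. For HSF2oe in control medium 4 were called without a filter, with DESeq2 and with the block, and 0 to 4 with a library left out; with TGF-β a left-out library gave 1 to 5. For HSF2oe in control medium, all genes called were 2441 of 31802 without a filter and 1899 of 16008 with DESeq2. The replicate number is not stated to mark a shared culture day, so the main fit did not pair libraries by it. Same-numbered libraries deviated together weakly (r = 0.0498 to 0.163 over 6 pairs of groups), below 0.1 in 4 of them. All of these r were positive, and weak values over all genes cannot show that pairing was absent. The block raised all genes called from 2212 to 3350 for TGF-β in Mock, from 1323 to 2366 in HSF2oe and from 1937 to 3614 for HSF2oe in control medium, and it called 78 interactions (83 without a filter, 23 with DESeq2). Library totals alone gave 4493, 2045 and 6061 genes for TGF-β in Mock, in HSF2oe and averaged, mostly lower (3885, 1593 and 5246), and turned the balance for HSF2oe to 1432 higher and 807 lower in control medium and 3526 and 1073 with TGF-β, against 781 and 1156, and 1537 and 1912, with TMM factors. Left-out libraries gave 1143 to 2266, 673 to 1334, 368 to 1993 (HSF2oe in control medium) and 1509 to 3331 (with TGF-β).

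Sign changes with library totals alone were, for TGF-β in Mock, HSPB1 -0.10, HSPB7 -0.022 and HSPB8 -0.23. In HSF2oe they were HSPB7 -0.024, HSPB8 -0.15, BAG1 -0.044, BAG2 -0.067 and BAG3 -0.11, and averaged, HSPB1 -0.047, HSPB7 -0.023, HSPB8 -0.19 and BAG3 -0.20. For HSF2oe in control medium they were HSPB8 0.083, HSPB11 0.056 and BAG2 0.039, with TGF-β HSPB8 0.17, averaged HSPB8 0.13, and for the interaction HSPB1 0.10, HSPB6 0.099 and HSPB8 0.086. The interaction also turned for HSPB1 (0.021 without a filter, 0.0038 with a stricter one), HSPB8 (0.0075 without a filter), HSPB7 (0.027 thinned) and HSPB6 (0.017 without a filter, 0.00010 stricter, 0.00063 DESeq2, 0.024 limma-trend, 0.022 block, 0.035 thinned). HSPB8 turned to 0.0025 (limma-trend) and 0.0026 (compared libraries only) in control medium and 0.00089 (no filter) with TGF-β, and BAG1 to 0.016 under averaged TGF-β (thinned).

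Left-out libraries turned signs for TGF-β in Mock in HSPB8 (-0.050 to 0.095). In HSF2oe they did so in HSPB1 (-0.020 to 0.34), HSPB6 (-0.53 to 0.069), HSPB8 (-0.093 to 0.12) and CRYAB (-0.31 to 0.23), and averaged in HSPB8 (-0.037 to 0.072), CRYAB (-0.25 to 0.022), BAG1 (-0.099 to 0.039), BAG2 (-0.063 to 0.047) and BAG3 (-0.011 to 0.030). For HSF2oe these were HSPB8 (-0.080 to 0.065) and HSPB11 (-0.078 to 0.011) in control medium, HSPB8 (-0.12 to 0.091) and HSPB11 (-0.019 to 0.26) with TGF-β, and HSPB8 (-0.067 to 0.042), HSPB11 (-0.030 to 0.11) and BAG2 (-0.0076 to 0.10) averaged. Interactions ranged over HSPB1 -0.18 to 0.18, HSPB6 -0.27 to 0.33, HSPB7 -0.19 to 0.0030, HSPB8 -0.11 to 0.097 and CRYAB -0.13 to 0.42.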

Other observations

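Genes whose log2 CPM followed a member most closely over the 8 libraries, among 11676 genes, are given as a description: the libraries fall into HSF2oe and Mock groups that share this split, and depth and scaling are common to all genes. HSPB1 was followed by GPT2 (Pearson r = 0.993), an alanine transaminase, PRDX5 (0.983), a peroxidase, and PSAT1 (0.982), a serine synthesis enzyme. CRYAB was followed by SSBP2 (0.981) and VPS26B (0.981), and HSPB11 by FAR2 (0.985) and MRPS6 (0.985). BAG1 was followed by TOMM40 (0.986), an import pore of mitochondria, and RNPS1 (0.984), and BAG3 by NOLC1 (0.985), a nucleolar protein, and MRPL32 (0.983). For BAG2 (NNT-AS1, 0.948) and HSPB8 (ALG10B, 0.940) the closest gene was less close.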
